A study of Mus musculus with 2 samples.

Results

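The genes described here encode the T cell receptor signalling machinery: the CD3 chains, the coreceptor CD4, the kinases, adaptors and enzymes that carry the signal inward, and the phosphatases, ubiquitin ligases and adaptors that limit it. A list of 38 gene symbols was taken, chosen by known function, and all 38 had a value in both libraries, out of 24346 symbols in all. The libraries are bulk RNA-seq of GFP+CD4+ T cells sorted from the spleen and from the lung on day 15 after bleomycin (BLM), an agent that injures the lung, with 1 library per tissue, each from the pooled cells of 3 mice. Both came from Foxp3-DTR-GFP (FDG) mice, in which GFP and the diphtheria toxin receptor are expressed from the Foxp3 locus, so that GFP+ cells are regulatory T cells (Tregs). The mice were 10 to 16 weeks old and received 50 µg of BLM into the trachea, and no library from mice without BLM was analysed here. Levels are given as FPKM, which corrects the reads of each gene for transcript length and for the reads mapped in its library. A single library per tissue leaves the variation between mice unmeasured, so differences are given as sizes without p-values.

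When a T cell meets its antigen, Lck, held at CD4, phosphorylates the tails of the CD3 chains and of CD247 (the zeta chain), and Zap70 docks there. Zap70 then phosphorylates Lat and Lcp2 (SLP-76), scaffolds on which Plcg1 produces the second messengers for calcium, Ras and protein kinase C theta. Tregs need this receptor to develop and to keep their suppressive function, and Csk, phosphatases and ubiquitin ligases hold the signal in check at each step.

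All 38 genes were detected in both tissues, most of them at similar levels (the plot of levels by role). In the splenic library the members ranged from 3.07 FPKM of Sos1 to 912 FPKM of Cd2, and in the lung library from 1.36 FPKM of Sos1 to 1103 FPKM of Cd3g. Of the 38 members, 20 were among the 1000 of all 24346 symbols with the highest FPKM in the spleen and 17 in the lung. Their FPKM summed to 7443 in spleen and 6856 in lung. All 38 passed a filter of 1 FPKM in the higher library, as did 12094 of all symbols.

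**Figure D1:**
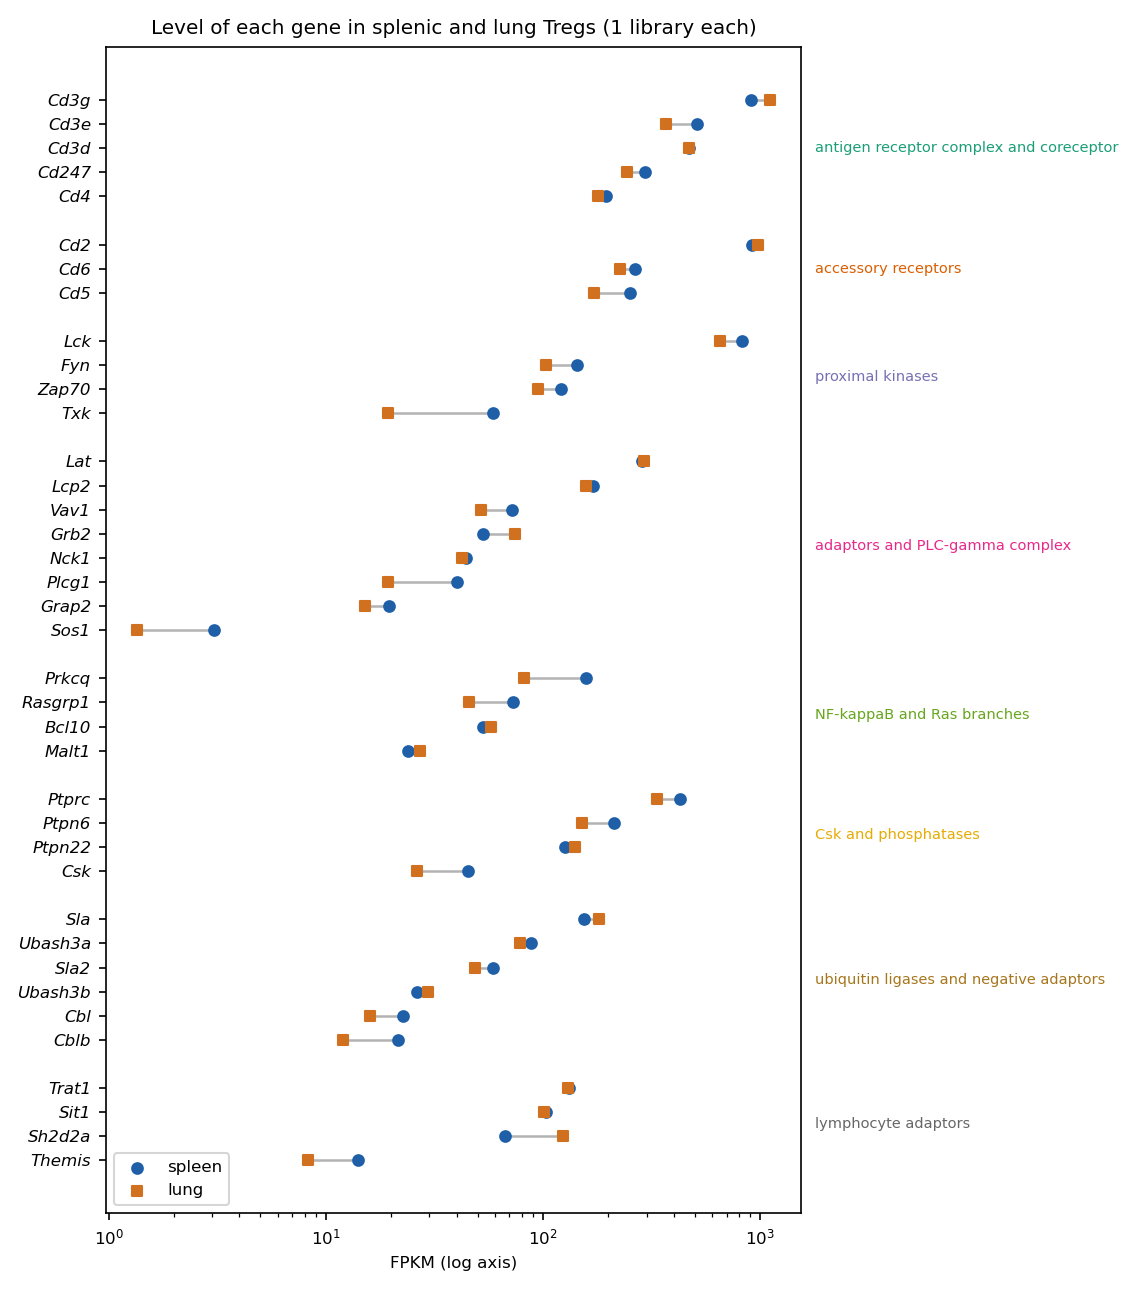
FPKM of each of the 38 genes on a log axis, with a blue circle for the splenic library and an orange square for the lung library, 1 library each, grouped by role. The circle and square of most genes lie close together, and the widest gaps are those of Txk (59.0 and 19.4 FPKM), Sos1 (3.07 and 1.36 FPKM) and Plcg1 (40.2 and 19.4 FPKM).

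The lung value of each gene was divided by its splenic value, and the log2 of this ratio is used below. Within 1.5-fold in either direction lay 29 of the 38 members, beside 47.2% of all symbols under the same filter. All members but Sos1 reached 10 FPKM, and of all symbols at that level 57.5% lay within 1.5-fold. Of the members, 28 were lower in lung and 10 higher, beside 48.5% of all symbols lower in lung and 51.5% higher. The median log2 ratio of the members was -0.27, and that of all symbols was 0.03. Rescaling each library to the same FPKM sum (TPM) moved every log2 ratio by -0.43, because the lung sum was the larger, and left 2 members, Grb2 and Sh2d2a, higher in lung, whereas Cd3g, Cd2, Lat, Bcl10, Malt1, Ptpn22, Ubash3b and Sla came out lower. With TPM 32.7% of all symbols were higher in lung and 25.9% at least 2-fold lower, beside 8 of the 38 members at least 2-fold lower. The distance between the members' median and that of all symbols does not depend on this scaling. Fewer T cells among the sorted cells and less of these mRNAs per T cell cannot be told apart in such bulk libraries.

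At least 2-fold lower in lung were 3 members, Txk, Sos1 and Plcg1, where 15.5% of all symbols passed the same threshold. Of the 37 members at 10 FPKM or more, 2 were at least 2-fold lower, beside 9.15% of all symbols at that level, and none was at least 2-fold higher, beside 11.6%. None of the 38 was at least 2-fold higher, where 17.8% of all symbols were. Just inside the threshold was Plcg1, with a log2 ratio of -1.05, and just outside it was Prkcq, with -0.95. At 1.5-fold, 8 members were lower, beside 25.4% of all symbols, and 1 was higher, beside 27.4%. At 3-fold, 1 member, Txk, was lower, beside 9.05% of all symbols. The reads behind each value were estimated from transcript lengths and from the FPKM that 1 read was worth. They ranged over the members from 262 to 19913 in spleen and from 131 to 17670 in lung. For 33 of the 38 members the 95% counting interval of the ratio (exact Clopper-Pearson on estimated reads) left out equal FPKM, as it did for 80.4% of all symbols at 1 FPKM or more with a known length. These intervals cover counting error only: PCR copies of a molecule are counted separately, and the variation between mice is not in them.

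**Figure D2:**
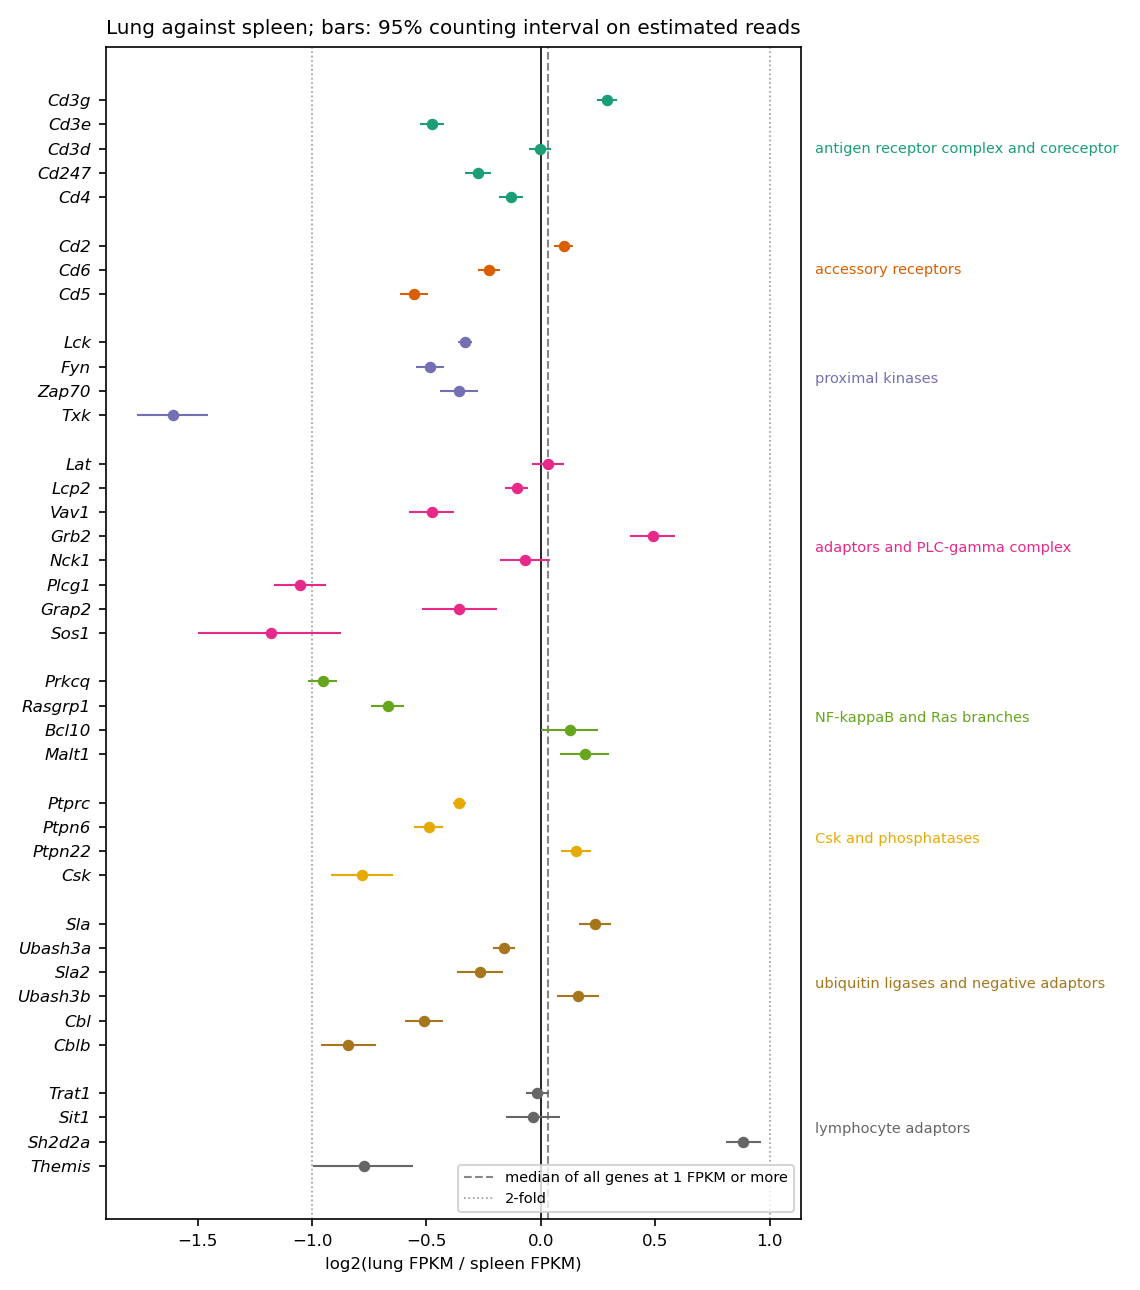
The log2 ratio of lung to spleen FPKM for each gene, by role, with bars for the 95% counting interval on estimated reads. The dashed line is the median of all genes at 1 FPKM or more (0.03) and dotted lines mark 2-fold. Txk, Sos1 and Plcg1 lie left of the 2-fold line, and Sh2d2a (0.89) lies farthest right.

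The chains of the receptor complex differed in their ratios. Cd3g was at 902 FPKM in the spleen and 1103 in the lung, a log2 ratio of 0.29 that became -0.14 with TPM. Cd3d was at 469 in the spleen and 468 in lung, and its counting interval included equal FPKM. Cd3e was at 513 in the spleen and 369 in lung, a log2 ratio of -0.48. Thus the FPKM of Cd3g exceeded that of Cd3e 1.76-fold in spleen and 2.99-fold in lung, a comparison within each library that no scaling alters. Cd247, whose tails carry most of the signalling motifs of the complex, was at 296 FPKM in the spleen and 245 in the lung. Cd4 was at 195 and 179 FPKM. The alpha and beta chains of the receptor itself (symbols Trac, Trbc1 and Trbc2) had no value in either library.

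Cd3g, Cd3d and Cd3e lie side by side on chromosome 9 of GRCm38 (mm10), at 44969572 to 44980431, 44981769 to 44987052 and 44998735 to 45009663. Cd3g is read from the minus strand and Cd3d from the plus strand, so that their starts face away from each other across a short gap. The bases before these starts are printed here because the neighbours differed in ratio. Windows of 250 bases before each RefSeq start were searched, and only the bases outside the RefSeq span of the gene are shown, which leaves out 17 bases for Cd3d and 52 for Cd3e. Each is written 5′ to 3′ on the strand of its gene, with build GRCm38.p6. Capitals mark matches on either strand to CAGGAAG (a core of ETS factors), TGTGGT (RUNX) or CTTTGA (TCF), and no match overlaps another.
Cd3g, chr9:44980432-44980681, minus strand: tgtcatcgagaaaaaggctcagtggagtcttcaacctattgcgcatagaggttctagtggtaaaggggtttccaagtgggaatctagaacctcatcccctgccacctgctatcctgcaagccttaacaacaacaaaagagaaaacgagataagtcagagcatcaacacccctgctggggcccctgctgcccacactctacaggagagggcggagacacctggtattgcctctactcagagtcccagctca
Cd3d, chr9:44981536-44981768, plus strand: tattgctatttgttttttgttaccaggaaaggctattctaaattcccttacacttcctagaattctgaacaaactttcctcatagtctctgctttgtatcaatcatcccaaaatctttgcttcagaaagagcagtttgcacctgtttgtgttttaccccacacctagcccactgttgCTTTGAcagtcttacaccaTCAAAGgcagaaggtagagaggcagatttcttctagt
Cd3e, chr9:45009664-45009861, minus strand: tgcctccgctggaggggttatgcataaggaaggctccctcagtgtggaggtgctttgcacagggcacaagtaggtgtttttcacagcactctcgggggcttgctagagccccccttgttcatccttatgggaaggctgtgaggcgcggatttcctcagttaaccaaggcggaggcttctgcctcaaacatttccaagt
Cd3d held 2 TCF matches and Cd3g none of the letters searched, and the 1 ETS match of Cd3e lay in the bases inside its gene span. Txk has 2 starts in RefSeq, whose windows lie mostly or wholly inside its gene span and are not printed. They held 1 TCF and 1 RUNX match between them. Promoters were listed for 32 of the 38 members, at 43 starts, of which 10 held the ETS letters, 7 the RUNX letters and 8 the TCF letters. Of 32851 promoters of all genes 10.8%, 14.0% and 13.8% held them, respectively. A match describes letters in a window and not binding, and no binding was measured.

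Among the receptors that sit beside the antigen receptor, Cd2, the adhesion receptor for CD48, was at 912 FPKM in the spleen and 977 in the lung. Cd5 and Cd6 are related scavenger receptors that restrain receptor signalling and lie near each other on chromosome 19. Cd5 was at 252 FPKM in the spleen and 172 in the lung, a log2 ratio of -0.55. Cd6 was at 265 and 226 FPKM, a log2 ratio of -0.23. All 3 stayed within 1.5-fold, beside 57.5% of all symbols at 10 FPKM or more.

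All 4 kinases of the first steps were lower in lung, by unequal amounts, beside 48.5% of all symbols lower. Lck was at 823 FPKM in the spleen and 654 in the lung, Fyn, its relative, at 144 and 103, and Zap70 at 121 and 94.7. Their log2 ratios were -0.33, -0.48 and -0.36, so that Lck exceeded Zap70 6.79-fold in spleen and 6.91-fold in lung. Txk, a kinase of the Tec family also called Rlk, stood apart at 59.0 FPKM in the spleen and 19.4 in the lung. It was 3.05-fold lower in lung, the largest difference of the 38 members, with a log2 ratio of -1.61 and a counting interval from -1.76 to -1.45. Tec, a kinase of the same family that neighbours Txk on chromosome 5 and is also used by myeloid cells, was at 9.54 and 20.1 FPKM, higher in lung also with TPM.

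Of the 8 adaptors and enzymes of the Lat and Plcg1 complex, 6 were lower in lung and 2 higher, beside 48.5% of all symbols lower. Lat was at 286 FPKM in the spleen and 293 in the lung, and Lcp2 at 169 and 158. Grap2 (Gads), the adaptor that joins Lat to Lcp2, was at 19.5 and 15.2 FPKM, a log2 ratio of -0.36. Nck1, which links Lcp2 to actin, was at 44.3 and 42.3. Plcg1, the phospholipase that the scaffolds recruit, was at 40.2 FPKM in the spleen and 19.4 in the lung, 2.07-fold lower. Vav1, an exchange factor for Rac, was at 71.8 and 51.6 FPKM, a log2 ratio of -0.48. Grb2 and Sos1, the adaptor and the exchange factor that together activate Ras, went opposite ways: Grb2 was at 52.8 FPKM in the spleen and 74.1 in the lung, and Sos1 at 3.07 and 1.36. Sos1 was 2.26-fold lower in lung and had the fewest reads of all members, about 262 in spleen and 131 in lung, so that its counting interval, from -1.50 to -0.88, was the widest.

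The branches to NF-kappaB and Ras were split between their entry points and their downstream parts. Prkcq (protein kinase C theta), which starts the NF-kappaB branch, was at 158 FPKM in the spleen and 81.6 in the lung, 1.94-fold lower. Rasgrp1, the exchange factor for Ras that responds to diacylglycerol, was at 72.7 and 45.7 FPKM, 1.59-fold lower. Bcl10 was at 52.9 FPKM in the spleen and 57.8 in the lung, and Malt1, its paracaspase partner, at 23.9 and 27.3. Both were lower in lung after rescaling to TPM.

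Among the enzymes that set the activity of Lck, 3 of 4 were lower in lung, beside 48.5% of all symbols. With TPM all 4 were lower, where only 32.7% of all symbols were higher. Csk, the kinase that inactivates Lck, was at 45.2 FPKM in the spleen and 26.3 in the lung, 1.72-fold lower. Lck exceeded Csk 18.2-fold in spleen and 24.9-fold in lung. Ptprc (CD45), the phosphatase that opens Lck and that all leukocytes carry, was at 427 and 334 FPKM. Ptpn6 (SHP-1) was at 211 and 150 FPKM, whereas Ptpn22, which binds Csk, was at 126 in the spleen and 140 in lung. Ptpn6 therefore exceeded Ptpn22 1.68-fold in spleen and 1.08-fold in lung.

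Related genes among the negative regulators differed from each other in the size of their ratios. Of the ubiquitin ligases, Cblb, which restrains activation without costimulation, was at 21.5 FPKM in the spleen and 12.0 in the lung, 1.79-fold lower, and Cbl was at 22.7 and 15.9. Of the phosphatase-like proteins that bind Cbl, Ubash3a was at 87.7 FPKM in the spleen and 78.4 in the lung, and Ubash3b at 26.3 and 29.5. Of the Src-like adaptors, Sla was at 154 FPKM in the spleen and 182 in the lung, and Sla2 at 58.7 and 48.9. Sla thus exceeded Sla2 2.63-fold in spleen and 3.72-fold in lung. As FPKM, none of these 6 genes was 2-fold apart between the libraries. Of all symbols at 10 FPKM or more, 9.15% were at least 2-fold lower in lung and 11.6% at least 2-fold higher. With TPM all 6 were lower in lung, Cblb at least 2-fold. Of all symbols, 32.7% were then higher in lung and 25.9% at least 2-fold lower.

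Of the adaptors found mainly in lymphocytes, Trat1 and Sit1, which span the membrane beside the receptor, had nearly equal values in spleen and lung, at 132 and 130 FPKM and at 103 and 101 FPKM. Themis, which is needed in thymocyte selection, was at 14.1 FPKM in the spleen and 8.25 in the lung, 1.71-fold lower. Sh2d2a (TSAd), an adaptor that binds Lck and is induced by activation, was at 66.6 FPKM in the spleen and 123 in the lung. It was 1.85-fold higher in lung, the largest such difference of the 38, with a log2 ratio of 0.89 and a counting interval from 0.81 to 0.96. It remained higher in lung under every scaling tried.

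**Figure D3:**
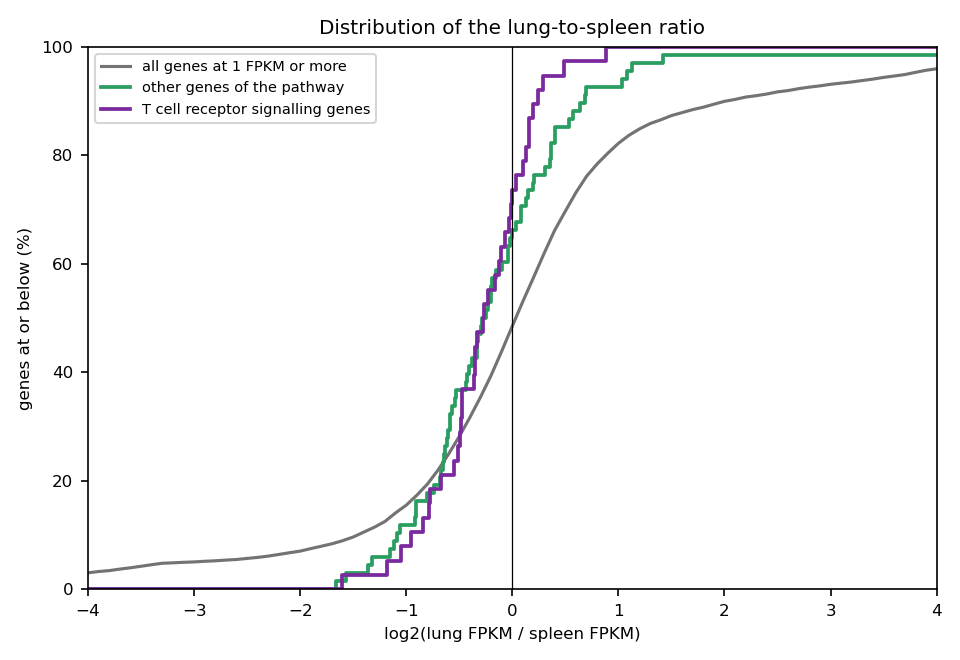
Share of genes at or below each log2 ratio of lung to spleen FPKM, for the 38 T cell receptor signalling genes (purple), 68 other genes of the pathway (green) and all 12094 genes at 1 FPKM or more (grey). The purple curve is the steepest, and the medians are -0.27, -0.27 and 0.03.

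The ratios moved with transcript length over all genes. Among symbols at 1 FPKM or more with a known length, the median log2 ratio was 0.52 for transcripts under 1 kb (1160 genes), 0.27 for 1 to 2 kb (2894), 0.01 for 2 to 3 kb (2848), -0.17 for 3 to 4 kb (2012), -0.20 for 4 to 6 kb (1969) and -0.27 over 6 kb (1023). Across these 11906 genes of the same pair of libraries, Spearman's rho between ratio and length was -0.23, and across the 38 members it was -0.31. The part of transcript length in the members' ratios was not tested. Set against genes of like length, 11 of the 38 members lay above the median of their bin. Measured from this median, Txk was the only member at least 2-fold lower (-1.62), where 15.0% of all genes with a length were, and Sh2d2a the only one at least 2-fold higher (1.06), where 16.7% were. The distances of Sos1, Plcg1 and Prkcq were -0.91, -0.85 and -0.78. Cd3e, a short transcript, lay -0.75 from its bin, and Cd3g lay 0.02 from it. Ubash3b and Malt1, both long, lay 0.43 and 0.39 above theirs. This comparison was added after the values had been seen.

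**Figure D4:**
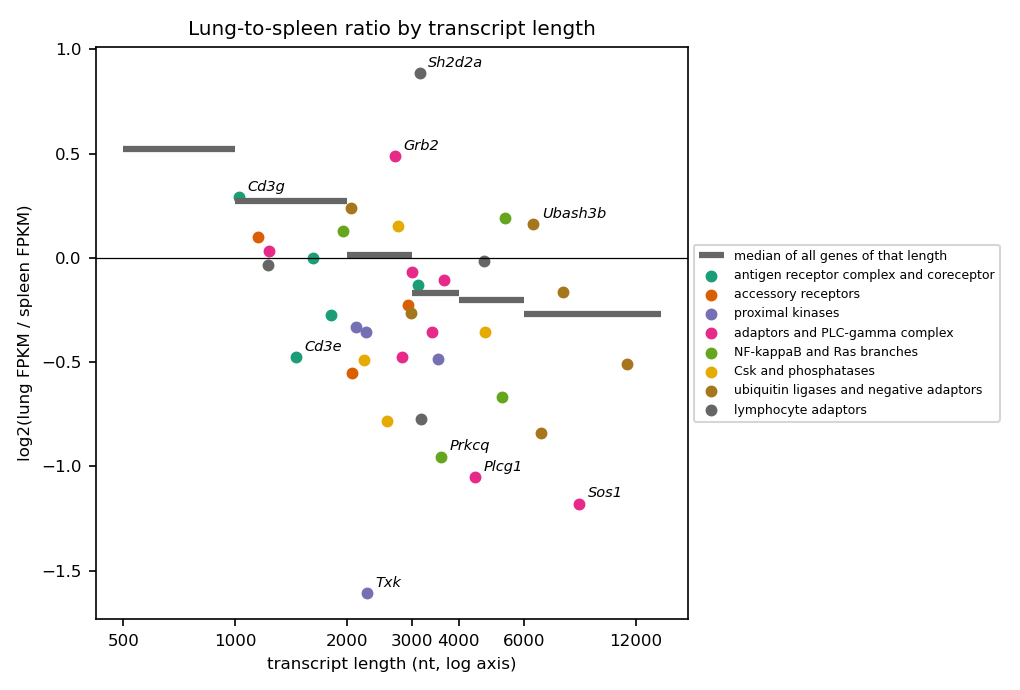
The log2 ratio of lung to spleen FPKM of each of the 38 genes against its transcript length in nucleotides (log axis), coloured by role. Grey bars give the median of all genes at 1 FPKM or more in 6 length ranges, from 0.52 under 1 kb to -0.27 over 6 kb; Txk and Sh2d2a lie farthest from the bars.

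Markers of other cell types were detected in both libraries, at different levels. The FPKM of 12 macrophage genes summed to 881 in spleen and 29398 in lung, all 12 higher in lung, and Lyz2 alone was at 376 and 24947. Those of 5 neutrophil genes summed to 425 and 1200, led by S100a8 (276 and 804), and all were higher in lung. The 5 genes of lung epithelium summed to 12.5 and 3121, with Scgb1a1 at 1.48 and 3021 and Sftpc and Sftpb at 0 in spleen, whereas Epcam was at 8.75 and 1.79. The 5 fibroblast genes summed to 0.290 and 47.0 and all were higher in lung (Col1a1 at 0.129 and 5.94, Dcn at 0.122 and 22.2, Col3a1 and Pdgfra at 0 in spleen). The 6 dendritic cell genes summed to 9.43 and 39.9, with 3 higher in lung. Itgax (1.36 and 24.1) and Zbtb46 (1.70 and 11.5) made up most of the lung sum, whereas Flt3 (1.43 and 0.172) and Siglech (2.78 and 1.71) were lower and Clec9a was at 0 in lung. The 4 endothelial genes summed to 55.0 and 38.6, nearly all of it in spleen from Pecam1 (54.8 and 31.7), which leukocytes also carry. Cldn5 was at 0.160 and 6.54, Cdh5 was at 0 in spleen and Kdr at 0 in lung. The 8 B cell genes summed to 271 and 134, led by Cd79b (90.4 and 59.7), and all were lower in lung. The 5 NK cell genes summed to 17.6 and 16.6, with Prf1 the highest (6.38 and 9.80) and Ncr1 at 0 in lung. Cd8a and Cd8b1, coreceptors of another T cell lineage, were at 4.13 and 19.9 FPKM in spleen and 12.2 and 74.8 in lung. Of 6 Treg genes, 4 were higher in lung, Foxp3 among them (18.7 and 41.8), and Tnfrsf4 was the highest in both (486 and 1004). Il2ra (CD25) was at 89.4 and 59.1 and Ikzf2 at 42.0 and 41.6. The members were divided by where they are known to be expressed. The 19 found mainly in T cells had a median log2 ratio of -0.23, with 15 lower in lung. The 19 also used by other leukocytes had a median of -0.36, with 13 lower. Of all symbols 48.5% were lower. Measured from genes of like transcript length, the order of the medians was reversed, at -0.28 and -0.24. The part of these other cells in the ratios was not tested.

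The rest of the pathway was described with 73 further genes, of which 69 had a value and 68 reached 1 FPKM. Their median log2 ratio was -0.27, with 45 lower and 23 higher in lung, beside 48.5% of all symbols lower. At least 2-fold lower were 8, beside 15.5% of all symbols, and at least 2-fold higher were 5, beside 17.8%. In the NF-kappaB branch, Traf6, a ubiquitin ligase, was at 17.0 FPKM in the spleen and 5.76 in the lung, and Map3k7 (TAK1), the kinase it activates, at 15.8 and 6.15. The 8 actin regulators had a median of -0.40, with Evl (67.0 and 21.2 FPKM) and Wipf1, the partner of the Wiskott-Aldrich protein (21.2 and 9.94), at least 2-fold lower and Cdc42 higher (411 and 610).

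Of 13 kinases and lipid kinases, 7 were higher in lung and 6 lower, beside 51.5% of all symbols higher. Their median log2 ratio was 0.13, and it was below 0 with TPM. Pik3cd, the catalytic subunit of the PI3 kinase of lymphocytes, was at 94.1 FPKM in the spleen and 37.5 in the lung, 2.51-fold lower. Mapk3 (ERK1) was at 10.5 and 22.9 FPKM, Pdpk1 at 15.4 and 31.7 and Tec at the values given above, each at least 2-fold higher. After rescaling to TPM these 3 were higher by less than 2-fold.

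Among 13 adaptors and exchange factors, with a median of -0.23, Nck2 was at 16.6 FPKM in the spleen and 7.45 in the lung, and Sos2, the relative of Sos1, at 4.84 and 2.58. Gab2, an adaptor also used by myeloid cells, was at 0.565 and 11.1 FPKM, about 22.9 and 511 reads. Among 11 genes of the calcium branch, with a median of -0.20, the receptor Itpr3 was at 6.81 and 3.26 FPKM, whereas the channel subunit Orai1 was at 36.9 and 59.7. Of 17 inhibitors, with a median of -0.33, 12 were lower in lung, beside 48.5% of all symbols. Dgkz, one of the kinases that remove diacylglycerol, was at 91.3 FPKM in the spleen and 42.1 in the lung, and Dgka at 449 and 304. Nf1, an inhibitor of Ras, was at 0.398 and 1.07 FPKM, close to the filter.

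**Figure D5:**
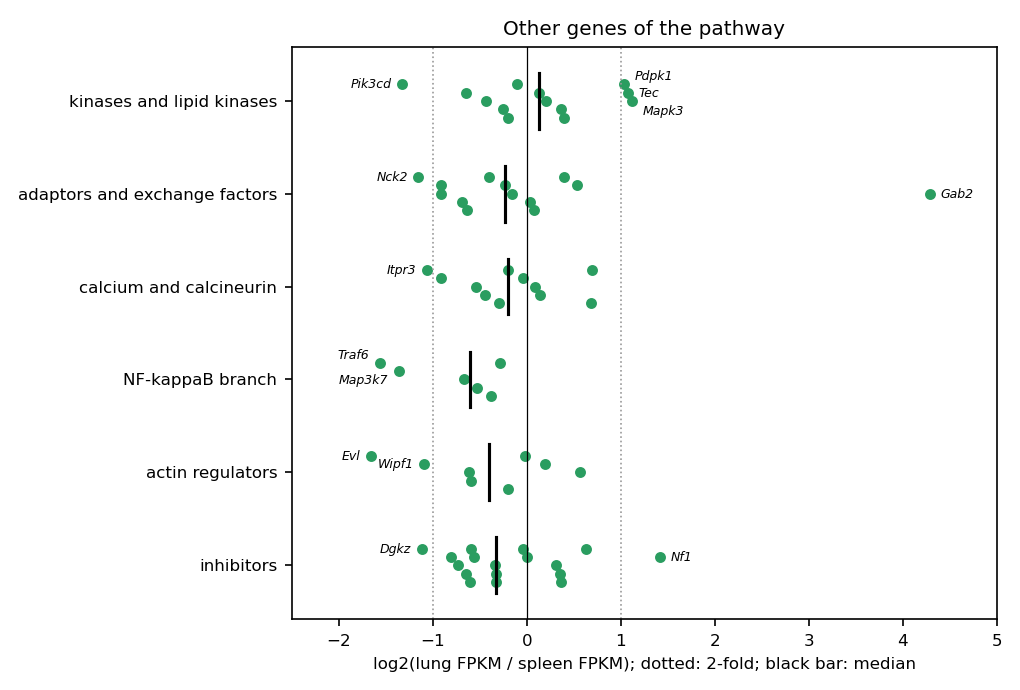
The log2 ratio of lung to spleen FPKM of the 68 other pathway genes at 1 FPKM or more, each a point, in 6 groups by function, with a black bar for the median of each group and dotted lines at 2-fold. Genes beyond 2-fold are named, 8 to the left and 5 to the right, with Gab2 (0.565 and 11.1 FPKM) farthest right.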

How the data were processed

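GFP+CD4+ cells of spleen and lung were sequenced as SMART-Seq HT libraries, which carry no strand information and no molecular identifiers. Single-end reads of 75 bases were aligned by the authors (mm10), and the deposited values are FPKM from Cuffdiff 2.2.1. The submitters' processing notes also name SAMtools 0.1.18, Bowtie2 2.2.8 and TopHat 2.1.1. The annotation and any scaling between libraries are not given in the sources used here.

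FPKM under 0.1 were set to 0.1 and the log2 ratio of lung to spleen was computed. All 38 members are named, of other pathway genes those past 2-fold, and of marker lists those with the highest FPKM in each library and those at 0; Foxp3, Il2ra, Ikzf2, Cd8a, Zbtb46, Flt3, Cldn5, Sos2, Orai1, Cdc42 and Dgka were named after their values were seen. Members and lists were chosen with earlier results of these data known.

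Reads were estimated from GENCODE M21 transcripts (GRCm38) with a RefSeq accession, found for 23674 symbols (97.2%), with fragments of 200 ± 80 and at least 75 nt. At 1 kb of effective length 1 read was 0.0964 FPKM in spleen and 0.0849 in lung; of genes with 1 to 10 reads, 74.3% and 76.7% lay within 0.1 of a whole number. Reads summed to 9860650 and 12877811, and FPKM to 599633 and 808853. Genes with several transcripts, 16 of the members, were given a median length, so their reads are approximate. Exons of 4 members overlap another listed gene. It lies on the opposite strand for Cd247 (Pou2f1), Plcg1 (Zhx3) and Themis (4930519F09Rik), and on the same strand for Lck (Mir8119). Reads of the opposite-strand pairs cannot be told apart without strand, and those of Lck and Mir8119 not even with it. Promoters are from RefSeq (GRCm38.p6). The steps were tested on simulated data. Software was matplotlib 3.10.9, scipy 1.17.1, pandas 2.3.3 and numpy 2.4.6 under Python 3.11.15. Some genes of the wider list are not reported here.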

Additional observations from a re-analysis of the deposited data

How the results depend on the processing

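The median log2 ratio of the members stayed below 0 under every floor, pseudocount, scaling and filter tried, and moved from -0.27 to -0.70 only with TPM, where the median of all symbols became -0.40. With TPM, 8 members were at least 2-fold lower in lung and 2 were higher at any size, against 3 and 10 as reported; of all symbols 25.9% and 32.7% were. With a threshold of 1.5-fold 8 members were lower and 1 higher, and with 3-fold 1, Txk, was lower. Measured from genes of like transcript length, a comparison added after the values had been seen, 1 member was at least 2-fold lower and 1 at least 2-fold higher. The counts of the remaining settings lay within 1.5 times those reported. With 1 library per tissue, no sample could be left out and the variation between mice is unknown. No paired analysis was possible because each tissue has 1 library and the values come from no test. Each member rested on 131 or more estimated reads in each library. The counting intervals of Sos1 (-1.50 to -0.88), Plcg1 (-1.17 to -0.94) and Prkcq (-1.02 to -0.89) crossed the 2-fold line. On which side of it these genes lie is therefore uncertain from counting alone. With a pseudocount of 1 FPKM the log2 ratio of Sos1 was -0.79.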
